A study of Mus musculus with 10 samples.

Results

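Tetraspanins are membrane proteins that cross the lipid bilayer several times, gather one another and their partner proteins into patches, and are carried on the vesicles that bud inward into late endosomes. Members such as CD63, CD9 and CD81 are used as markers of exosomes, the vesicles released when such endosomes fuse with the cell surface, and the inward budding is cut off by ESCRT-III, the complex to which CHMP4B belongs. Here 10 tetraspanin genes, Cd63, Cd82, Cd9, Cd81, Cd151, Tspan4, Tspan9, Tspan17, Tspan3 and Tspan31, were described among 55858 genes of a whole-heart RNA table. They were taken by symbol, each symbol stood on 1 row, and they were picked with their cKO and control values already known, so that their differences are given as a description, without p-values. The other 21 tetraspanin genes matched in the table serve as the comparison within the family.

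The cKO group was 5 mice labelled MCM with Chmp4bF/F, which received subcutaneous tamoxifen, 0.1 mg/g, on 2 days beginning at postnatal day 0. The control group was 5 mice of the same MCM and Chmp4bF/F genotype given corn oil, and all hearts were taken at postnatal day 10. Tamoxifen itself and the loss of Chmp4b cannot be told apart in this design, since no group was given tamoxifen without the floxed allele, and the promoter behind MCM is not given in the sources used here. Values were deposited as TPM, transcripts per 1000000, and their read depth is unknown.

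Chmp4b itself had 40.0, 36.3, 39.1, 37.4 and 38.1 TPM in cKO replicates 1, 3, 5, 6 and 7, against 36.6, 58.6, 52.3, 47.9 and 41.9 TPM in control replicates 4, 6, 8, 9 and 13. Every library is closed to the same total. Mitochondrial transcripts held 35.5% to 41.5% of that total in cKO libraries, against 50.005% to 59.4% in control libraries, and as deposited the 13282 tested genes had a median log2 difference of 0.63. TPM values were therefore also rescaled with size factors (median of ratios), and these are called relative TPM, or relative to the median gene. On that scale Chmp4b averaged 29.5 ± 1.38 in cKO hearts, against 60.8 ± 6.51 in control hearts (SD, n = 5 each), a log2 difference of -1.01 (two-sided exact permutation test, p = 0.00794, which is the lowest value 252 splits can give). Xist was at 47.6 to 65.9 TPM in cKO replicates 1, 5 and 7 and below 0.12 TPM in the other 7 libraries, which held Ddx3y at 16.7 to 32.8 TPM. The groups thus differ in X- and Y-linked transcripts, and values within the 7 libraries with Ddx3y (2 cKO, 5 control) are given where they change a call.

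In cKO hearts, 7 of the 10 genes were called higher relative to the median gene (Tspan17, Cd63, Cd82, Tspan4, Cd151, Cd9 and Cd81), Tspan3 was called lower, and Tspan9 and Tspan31 were not called (limma, adjusted p under 0.05 over 13282 genes). Of all tested genes, 20.8% were called higher and 20.8% lower on this scale, and nothing is read from the members' count, because they were chosen on the same contrast. All cKO hearts lay above all control hearts for 7 of the 10 and below them for 1, beside 15.8% and 15.5% of all tested genes on this scale. As deposited, 9 of the 10 were called higher and 0 lower, where 76.5% of all tested genes were called higher and 3.46% lower. The median difference of the 10 was 0.46 on the relative scale and 1.19 as deposited, beside 0.01 and 0.63 over all tested genes. In bulk tissue, fewer cells of a type and less RNA per cell cannot be told apart. Within the 7 libraries with Ddx3y, 5 of the 10 were called higher and 1 lower relative to the median gene, with Cd81 and Tspan4 no longer called. This subset holds 2 cKO libraries, which lowers the power to call any gene (SE of Tspan4 0.167, against 0.117 over all 10 libraries). The share of all tested genes called in this subset, or with Ddx3y as a covariate, is not given here or below.

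**Figure D1:**
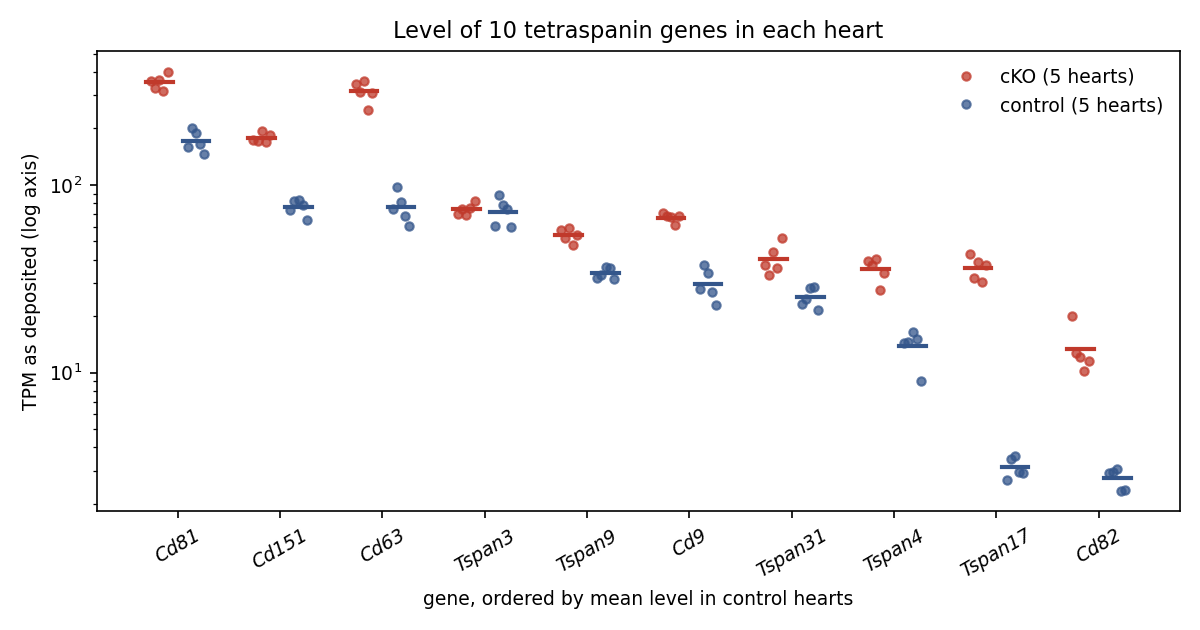
TPM as deposited (log axis) of 10 tetraspanin genes in each of 5 cKO hearts (left of each pair) and 5 control hearts (right), with bars at the group means; genes run from highest to lowest mean in control hearts. All cKO points lie above all control points for 9 genes, and for Tspan3 the groups overlap; over all tested genes 62.5% have all cKO values above all control values as deposited.

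Summed over the 10 genes, cKO hearts held 1167 ± 92.9 TPM and control hearts 506 ± 64.8 TPM (SD, n = 5 each). The summed relative TPM was 902 ± 55.0 in cKO hearts, against 650 ± 33.4 in control hearts (SD, n = 5 each), with 857 to 985 in cKO libraries, against 606 to 696 in control libraries. The order of levels differed between the groups for several members. In cKO hearts Cd81 stood first at 353 TPM, Cd63 second at 315 TPM and then Cd151 at 178 TPM, and Cd81 exceeded Cd63 in each of the 5 libraries although their ranges overlapped. In control hearts Cd81 also stood first, at 172 TPM, but Cd151 at 76.5 TPM, Cd63 at 76.1 TPM and Tspan3 at 72.2 TPM followed with overlapping ranges. In the middle, Cd9 at 67.0 TPM stood above Tspan9 at 54.2 TPM in each of the 5 cKO hearts, while in control hearts Cd9 at 29.8 TPM stood below Tspan9 at 34.0 TPM in 4 of 5. At the low end, Tspan17 averaged 36.2 TPM in cKO hearts, with ranges that overlapped those of Tspan4 (35.7 TPM) and Tspan31 (40.5 TPM). In control hearts Tspan17 averaged 3.13 TPM, below Tspan4 at 13.9 TPM in every library, and overlapped Cd82 at 2.74 TPM.

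Shares within the total of the 10 genes do not depend on any scaling between libraries. Where the shares of some genes are larger, those of others must be smaller. A lower share is therefore not by itself a lower level, and Cd81 was called higher on both scales. Cd63 made up 28.3%, 27.8%, 28.9%, 24.6% and 25.05% of that total in cKO replicates 1, 3, 5, 6 and 7, against 15.8%, 16.7%, 14.6%, 13.7% and 14.2% in control replicates 4, 6, 8, 9 and 13. Tspan3 took 5.55% to 7.34% in cKO libraries, against 12.9% to 15.1% in control libraries. Thus Cd63 had a larger share and Tspan3 a smaller share in every cKO heart than in any control heart. Shares were also lower in all cKO hearts for Cd81 (29.0% to 32.5% in cKO, 33.1% to 34.7% in control), Tspan9 (4.38% to 4.76% in cKO, 5.68% to 7.51% in control) and, by a narrow margin, Tspan31 (2.97% to 4.208% in cKO, 4.214% to 5.76% in control). Tspan17 held 2.85% to 3.51% in cKO libraries, against 0.571% to 0.695% in control libraries, and Cd82 0.937% to 1.65% in cKO libraries, against 0.474% to 0.625% in control libraries. For Cd9 (5.42% to 6.07% in cKO, 5.39% to 6.40% in control), Cd151 (14.3% to 16.5% in cKO, 14.1% to 15.8% in control) and Tspan4 (2.69% to 3.35% in cKO, 2.14% to 3.08% in control) the shares overlapped.

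**Figure D2:**
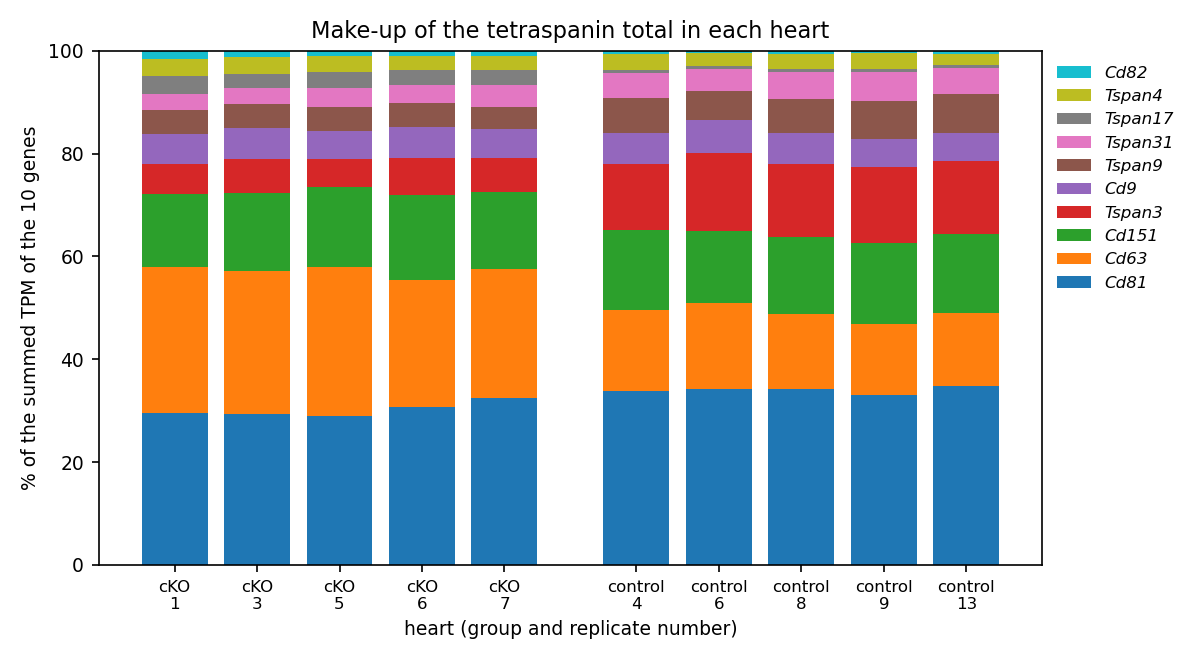
Percent of the summed TPM of the 10 genes taken by each gene, stacked, in the 5 cKO hearts (left) and the 5 control hearts (right), named by replicate number. The Cd63 segment spans 24.6% to 28.9% in cKO and 13.7% to 16.7% in control hearts, and the Tspan3 segment 5.55% to 7.34% in cKO and 12.9% to 15.1% in control hearts.

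The 3 promoters below are shown because they belong to the member with the largest difference (Tspan17), to the abundant member with the largest difference (Cd63) and to the member that was called lower (Tspan3). Each runs 5′ to 3′ over 300 bases, from 250 before to 50 after the start annotated by RefSeq on GRCm38.p6, and capitals mark the GC box GGGCGG, the core letters bound by Sp1 and related factors, where it lies on the printed strand or as its reverse complement.
Tspan17 (chr13:54789155-54789454, plus strand): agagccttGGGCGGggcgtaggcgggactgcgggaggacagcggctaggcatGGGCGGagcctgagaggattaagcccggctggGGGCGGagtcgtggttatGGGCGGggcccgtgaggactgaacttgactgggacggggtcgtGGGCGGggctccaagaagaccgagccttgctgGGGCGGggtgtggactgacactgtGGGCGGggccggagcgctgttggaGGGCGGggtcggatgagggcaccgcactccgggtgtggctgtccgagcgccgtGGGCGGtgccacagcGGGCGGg
Cd63 (chr10:128909095-128909394, plus strand): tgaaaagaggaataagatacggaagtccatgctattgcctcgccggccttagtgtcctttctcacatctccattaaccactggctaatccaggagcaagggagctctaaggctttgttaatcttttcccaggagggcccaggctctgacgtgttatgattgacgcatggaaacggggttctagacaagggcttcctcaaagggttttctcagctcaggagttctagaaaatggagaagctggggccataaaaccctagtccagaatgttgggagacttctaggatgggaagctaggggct
Tspan3 (chr9:56161021-56161320, minus strand): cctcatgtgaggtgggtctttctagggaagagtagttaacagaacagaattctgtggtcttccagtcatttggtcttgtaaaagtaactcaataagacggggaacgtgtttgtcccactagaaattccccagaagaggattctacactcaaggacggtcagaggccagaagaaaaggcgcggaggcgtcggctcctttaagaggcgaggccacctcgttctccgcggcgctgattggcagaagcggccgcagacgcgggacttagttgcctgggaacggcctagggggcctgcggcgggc
The Tspan17 window held 10 GC boxes and 72.0% G and C, while those of Cd63 and Tspan3 held 0 GC boxes, with 49.3% and 55.7% G and C. The windows differ in place: that of Tspan17 covers the 5′ end of the gene span given below. Those of Cd63 and Tspan3 lie inside their gene spans, and other starts of these 2 genes were not searched. The richest window in G and C was 1 of 4 for Tspan9, with 73.3% and 6 GC boxes, and Tspan9 was not called relative to the median gene. At least 10 GC boxes were found in 17 of 32851 RefSeq promoters (0.0517%), and at least 1 in 35.7% of them. Over the 10 genes, 18 promoters were matched, and 9 of these, from 7 genes, held a GC box. Other motifs searched on both strands were CACGTG, the core of the lysosomal gene element, in 1 of 18 (a Tspan4 promoter) and 7.15% of all promoters, TGACNNNGC, the antioxidant response element, in 2 of 18 (1 each of Cd82 and Tspan9) and 12.4% of all promoters, TGANTCA, the AP-1 element, in 1 of 18 (Tspan4) and 7.81% of all promoters, and TATAAA in 1 of 18 (Cd81) and 13.6% of all promoters. These matches are descriptions of the letters and were searched for with the genes' values known.

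The late endosomal members were Cd63 and Cd82. Cd63 (ENSMUSG00000025351.15, protein-coding, GRCm38 chr10:128900989-128912822, plus strand) encodes the tetraspanin most typical of late endosomes, lysosomes and exosomes. It had 343, 312, 359, 252 and 309 TPM in cKO replicates 1, 3, 5, 6 and 7, against 74.0, 97.6, 80.6, 68.1 and 60.2 TPM in control replicates 4, 6, 8, 9 and 13. The lowest cKO heart, replicate 6, lay well above the highest control heart, replicate 6. The ratio of mean TPM was 4.14, and relative to the median gene the log2 difference was 1.31 ± 0.0936 (SE), with 243 ± 21.1 relative TPM in cKO hearts, against 97.8 ± 12.6 in control hearts (SD, n = 5 each). Within each library, Cd63 stood at 0.771 to 0.998 times the TPM of Cd81 in cKO and at 0.410 to 0.488 times in control hearts. The related pseudogene Cd63-ps was listed at 0 in all 10 libraries.

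Cd82 (ENSMUSG00000027215.14, protein-coding, chr2:93419111-93463140, minus strand) encodes a tetraspanin of late endosomes and the cell surface that is known as a suppressor of metastasis. It had 20.0, 12.8, 12.2, 10.2 and 11.5 TPM in cKO replicates 1, 3, 5, 6 and 7, against 2.94, 2.98, 3.06, 2.36 and 2.37 TPM in control replicates 4, 6, 8, 9 and 13. Replicate 1 stood apart among the cKO hearts, and the other 4 cKO hearts were still above every control heart. The mean TPM was 4.87 times as high in cKO, and the log2 difference relative to the median gene was 1.29 ± 0.128 (SE). Without cKO replicate 1 it was 1.16 ± 0.0857 (SE).

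Cd9, Cd81 and Cd151 act mainly at the cell surface. Cd9 (ENSMUSG00000030342.9, chr6:125460266-125494791, minus strand) encodes a partner of the immunoglobulin proteins IGSF8 and PTGFRN, with a part in cell fusion. It had 70.5, 68.1, 67.4, 61.2 and 68.0 TPM in cKO replicates 1, 3, 5, 6 and 7, against 27.9, 37.4, 34.0, 26.8 and 22.9 TPM in control replicates 4, 6, 8, 9 and 13. The groups did not overlap, and the cKO hearts were close to one another: relative TPM lay between 50.3 and 54.3 in cKO (coefficient of variation 2.94%) and between 32.8 and 44.5 in control hearts (12.5%). The log2 difference was 0.44 ± 0.0806 (SE) on the relative scale and 1.16 as deposited. Its pseudogene Cd9-ps was listed at 0 in all 10 libraries.

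Cd81 (ENSMUSG00000037706.18, chr7:143052739-143067934, plus strand) encodes the closest relative of CD9, a partner of the same IGSF8 and PTGFRN proteins. It had 359, 329, 360, 316 and 401 TPM in cKO replicates 1, 3, 5, 6 and 7, against 159, 200, 190, 165 and 147 TPM in control replicates 4, 6, 8, 9 and 13. Most of that distance went with the shift of all genes: relative TPM was 251 to 320 in cKO and 209 to 238 in control hearts, still without overlap. The log2 difference was 0.30 ± 0.0733 (SE) relative to the median gene. It was 0.23 ± 0.0772 (SE) within the 7 libraries with Ddx3y, and 0.24 ± 0.0868 (SE) with Ddx3y as a covariate, without a call in either. Cd9 stood at 0.170 to 0.207 times Cd81 in cKO and at 0.156 to 0.187 times in control libraries, which overlapped.

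Cd151 (ENSMUSG00000025510.15, chr7:141467392-141471473, plus strand) encodes the tetraspanin that binds laminin-binding integrins. It had 173, 171, 193, 169 and 185 TPM in cKO replicates 1, 3, 5, 6 and 7, against 73.5, 82.4, 82.8, 78.6 and 65.3 TPM in control replicates 4, 6, 8, 9 and 13. Relative TPM averaged 138 ± 9.30 in cKO hearts, against 98.7 ± 3.48 in control hearts (SD, n = 5 each), again without overlap. The log2 difference was 0.48 ± 0.0596 (SE) on the relative scale and 1.21 as deposited.

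Tspan4 (ENSMUSG00000025511.16, chr7:141475240-141493427, plus strand) encodes a tetraspanin that builds migrasomes, the vesicles left behind on retraction fibres of moving cells. It had 39.3, 37.5, 40.1, 27.6 and 33.8 TPM in cKO replicates 1, 3, 5, 6 and 7, against 14.5, 14.6, 16.4, 15.1 and 9.04 TPM in control replicates 4, 6, 8, 9 and 13. Replicate 6 was the lowest cKO heart and replicate 13 the lowest control heart, and the groups did not overlap. The log2 difference was 0.60 ± 0.117 (SE) relative to the median gene, and 0.52 ± 0.167 (SE) within the 7 libraries with Ddx3y, where it was not called. Tspan4 lies 3766 bases beyond the end of Cd151 on the same strand, with 1 protein-coding gene between them, and its TPM was 0.163 to 0.227 times that of Cd151 in cKO and 0.138 to 0.198 times in control hearts. It shares 292 exonic bases with Chid1 on the other strand (7.54 to 10.4 TPM in cKO, 3.25 to 7.98 TPM in control), and whether the counting used strand is not given in the sources used here.

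Tspan17 (ENSMUSG00000025875.15, chr13:54789377-54796776, plus strand) encodes one of the TspanC8 proteins, which escort the membrane protease ADAM10 out of the endoplasmic reticulum and to the places where it cuts its substrates. It had 42.6, 32.0, 38.7, 30.3 and 37.6 TPM in cKO replicates 1, 3, 5, 6 and 7, against 2.68, 3.48, 3.61, 2.96 and 2.94 TPM in control replicates 4, 6, 8, 9 and 13. The lowest cKO value lay far above the highest control value. The mean TPM was 11.6 times as high in cKO as deposited and 6.92 times relative to the median gene, a log2 difference of 2.52 ± 0.0795 (SE) on the log2(relative TPM + 1) scale, the largest of the 10. Its promoter is the GC-box-rich one printed above.

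The other TspanC8 genes did not share this size of difference. Relative to the median gene, Tspan14 had a log2 difference of 0.01 ± 0.0921 (SE, limma adjusted p = 0.96), Tspan5 of 0.08 ± 0.0973 (limma adjusted p = 0.532) and Tspan15 of -0.21 ± 0.12 (limma adjusted p = 0.189). Tspan33, below the level for testing, averaged 0.501 TPM in cKO hearts, against 0.122 TPM in control hearts, and Tspan10 did not exceed 0.0515 TPM in any library. The summed relative TPM of these 5 genes was 15.5 ± 0.887 in cKO hearts, against 15.7 ± 0.931 in control hearts (SD, n = 5 each), with overlap. Tspan17 therefore made up 66.4%, 63.4%, 65.3%, 60.6% and 65.3% of the TspanC8 total in cKO replicates 1, 3, 5, 6 and 7, against 19.7%, 19.6%, 20.8%, 20.5% and 21.5% in control replicates 4, 6, 8, 9 and 13. Adam10, the protease they escort, had 26.2 to 32.0 TPM in cKO and 12.2 to 18.8 TPM in control hearts, and its log2 difference relative to the median gene was 0.11 ± 0.077 (SE, limma adjusted p = 0.291).

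**Figure D3:**
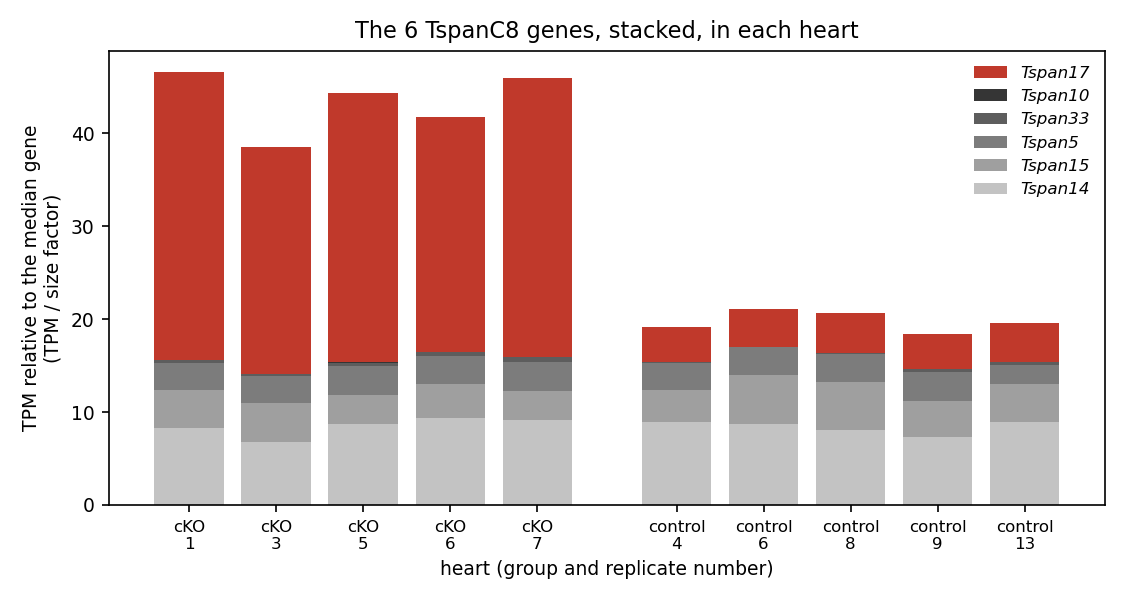
Relative TPM (TPM divided by the size factor) of the 6 TspanC8 genes, stacked, in the 5 cKO hearts (left) and the 5 control hearts (right). The red Tspan17 segment is 24.4 to 30.9 in cKO and 3.76 to 4.28 in control hearts, on top of a grey total of the other 5 genes of 14.1 to 16.5 in cKO and 14.6 to 17.0 in control hearts.

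Tspan3, Tspan9 and Tspan31 were the members not called higher relative to the median gene. Tspan3 (ENSMUSG00000032324.12, chr9:56131725-56165477, minus strand), a broadly expressed tetraspanin, had 70.4, 74.2, 69.1, 75.3 and 81.7 TPM in cKO replicates 1, 3, 5, 6 and 7, against 60.7, 88.3, 78.2, 74.0 and 59.7 TPM in control replicates 4, 6, 8, 9 and 13. As deposited the groups overlapped, with a log2 difference of 0.05 ± 0.112 (SE). Relative TPM was 51.0, 56.6, 51.6, 62.9 and 65.2 in cKO replicates 1, 3, 5, 6 and 7, against 85.3, 105, 92.7, 94.2 and 85.7 in control replicates 4, 6, 8, 9 and 13. On this scale every cKO heart was below every control heart, and the log2 difference was -0.68 ± 0.0866 (SE). Within each library the ratio of Cd63 to Tspan3 averaged 4.28 ± 0.764 in cKO hearts, against 1.06 ± 0.112 in control hearts (SD, n = 5 each).

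Tspan9 (ENSMUSG00000030352.16, chr6:127961396-128143594, minus strand), known as a tetraspanin of platelets, had 57.8, 52.0, 59.1, 48.1 and 54.0 TPM in cKO replicates 1, 3, 5, 6 and 7, against 31.9, 33.2, 36.8, 36.3 and 31.7 TPM in control replicates 4, 6, 8, 9 and 13. All cKO hearts were above all control hearts as deposited. Relative TPM was 39.7 to 44.2 in cKO and 39.5 to 46.2 in control hearts, overlapping, with a log2 difference of -0.07 ± 0.0597 (SE). Markers of platelets and megakaryocytes summed to 53.3 to 73.9 relative TPM in cKO libraries, against 27.9 to 31.0 in control libraries, with 3 of 4 tested markers called higher, and their part in Tspan9 was not tested. Cd9 lies 2466604 bases from Tspan9 on the same strand of chromosome 6, and its TPM was 1.14 to 1.31 times that of Tspan9 in cKO and 0.721 to 1.13 times in control hearts.

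Tspan31 (ENSMUSG00000006736.10, chr10:127067280-127070264, minus strand), whose human counterpart lies in a region amplified in sarcomas, had 37.3, 33.3, 43.9, 35.9 and 51.9 TPM in cKO replicates 1, 3, 5, 6 and 7, against 23.1, 24.6, 28.4, 28.6 and 21.6 TPM in control replicates 4, 6, 8, 9 and 13. Its cKO hearts were all higher as deposited, but relative TPM was 25.5 to 41.4 in cKO and 29.3 to 36.4 in control hearts, overlapping, with a log2 difference of -0.07 ± 0.118 (SE). It shares 641 exonic bases with the cell cycle kinase gene Cdk4 on the other strand. Cdk4 had 68.6 to 99.1 TPM in cKO and 33.8 to 54.1 TPM in control hearts, and Tspan31 stood at 0.423 to 0.614 times Cdk4 in cKO and at 0.455 to 0.684 times in control hearts. Without knowledge of strand, reads from the shared stretch cannot be told apart.

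Among the hearts of a group, the members' extremes fell on few libraries as deposited. Replicate 6 was the lowest cKO heart for 8 of the 10 genes, and replicate 13 the lowest control heart for 8 of the 10. Their size factors were 1.20, the lowest of 1.20 to 1.38 in cKO, and 0.697, the lowest of 0.697 to 0.843 in control libraries. After scaling, replicate 6 was lowest for 3 genes in cKO and replicate 13 for 4 in control hearts.

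Of the 21 other tetraspanin genes, 12 were tested and 9 were too low, with no value above 1.56 TPM among them and Prph2, a photoreceptor gene, at 0 in all 10 libraries. Relative to the median gene 3 of the 12 were called higher, 4 lower and 5 were not called, with a median of -0.12, beside 20.8% called in each direction over all genes. As deposited 8 of the 12 were called higher and 0 lower, where 76.5% of all tested genes were called higher and 3.46% lower. Their median as deposited was 0.43, beside 0.63 over all tested genes. Those called higher were the leukocyte tetraspanin genes Cd53 and Cd37, and Tspan2. Cd53 had 7.29 to 10.5 TPM in cKO and 1.70 to 3.32 TPM in control hearts, a log2 difference of 0.93 ± 0.11 (SE, limma adjusted p = 4.2e-05). Cd37 had 3.32 to 4.55 TPM in cKO and 0.833 to 1.67 TPM in control hearts (0.56 ± 0.137, SE, limma adjusted p = 0.00649). Tspan2, known from myelin-forming cells, had 11.6 to 17.9 TPM in cKO and 5.78 to 7.91 TPM in control hearts (0.34 ± 0.0902, SE, limma adjusted p = 0.0105). Within the 7 libraries with Ddx3y, Cd53 was called, Cd37 was not called at a difference as large as over all 10 (0.58, limma adjusted p = 0.0546), and Tspan2 was not called at a smaller one (0.19, limma adjusted p = 0.196).

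Those called lower were Tspan12, a co-receptor for Norrin and Frizzled-4 signals in vessels, Tspan7, Tspan13 and Tspan18, which is known from endothelial cells. Their log2 differences were -0.75 ± 0.108 (SE, limma adjusted p = 0.000178) for Tspan12, -0.75 ± 0.0937 (limma adjusted p = 6.4e-05) for Tspan7, -0.75 ± 0.138 (limma adjusted p = 0.0011) for Tspan13 and -0.48 ± 0.0948 (limma adjusted p = 0.00164) for Tspan18. As deposited none of the 4 was called: Tspan7 averaged 42.3 ± 3.20 TPM in cKO hearts, against 43.6 ± 8.15 TPM in control hearts, and Tspan12 19.7 ± 1.61 TPM in cKO hearts, against 20.6 ± 3.88 TPM in control hearts (SD, n = 5 each). Tspan18 was not called within the 7 libraries with Ddx3y, at -0.39 (limma adjusted p = 0.0636). Tspan3 had a difference of like size to those of Tspan7, Tspan12 and Tspan13. The 2 other tested genes were Tspan6 at -0.29 (limma adjusted p = 0.154; called lower without cKO replicate 7, at -0.41, and within the 7 libraries with Ddx3y, at -0.40), which is X-linked like Tspan7, and Rom1 at -0.04 (limma adjusted p = 0.829).

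**Figure D4:**
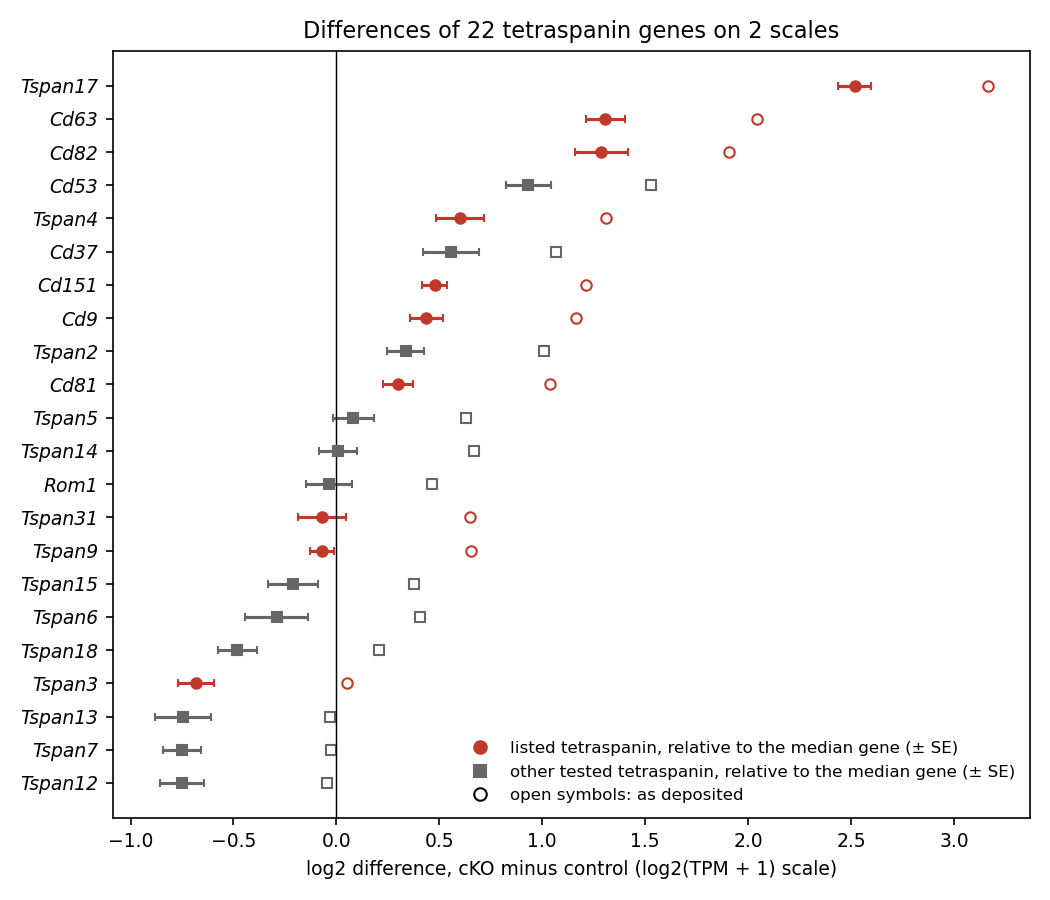
Log2 difference, cKO minus control, of the 10 listed tetraspanins (red circles) and 12 other tested tetraspanins (grey squares), filled with SE bars relative to the median gene and open as deposited. Relative to the median gene the genes run from 2.52 for Tspan17 down to -0.75 for Tspan12, and every open symbol lies to the right of its filled one.

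Marker genes of several cell types moved in the same hearts. Over all tested genes 20.8% were called in each direction relative to the median gene. On the relative scale all 14 of 14 macrophage markers were called higher (median 1.58), with summed relative TPM of 400 to 577 in cKO libraries, against 120 to 141 in control libraries. Fibroblast markers were called higher in 9 and lower in 3 of 12 (median 0.56), summing to 2035 to 2444 in cKO libraries, against 1476 to 1805 in control libraries. Endothelial markers were called lower in 13 of 14 (median -0.60), summing to 431 to 556 in cKO libraries, against 725 to 777 in control libraries. Cardiomyocyte markers were called lower in 11 and higher in 1 of 12 (median -0.88), summing to 26788 to 34154 in cKO libraries, against 50960 to 53939 in control libraries. Of smooth muscle and pericyte markers 2 were called higher and 4 lower of 10 (728 to 1003 in cKO, 724 to 817 in control). Few markers of the remaining types were tested: those of lymphocytes (7.94 to 10.1 in cKO, 4.37 to 5.32 in control, 1 of 2 tested called higher), of neutrophils, with Elane at 0 in all libraries (9.65 to 33.4 in cKO, 7.88 to 29.6 in control, 0 of 2 called), of Schwann cells (4.88 to 6.76 in cKO, 3.21 to 5.42 in control, 0 of 1 called) and of epicardium and mesothelium (3.14 to 5.53 in cKO, 7.22 to 11.05 in control, 1 of 1 called lower). No other marker was at 0 in all 10 libraries. As deposited, 76.5% of all tested genes were called higher, as were 14 of 14 macrophage and 10 of 12 fibroblast markers (1 lower). Of endothelial markers 2 were called higher, 1 lower and 11 not (565 to 664 TPM in cKO, 526 to 655 TPM in control). Of cardiomyocyte markers 2 were called higher, 3 lower and 7 not (36956 to 40843 TPM in cKO, 36739 to 45323 TPM in control). The part of any of these cells in the tetraspanin levels was not tested.

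Partners of tetraspanins had a median of 0.17 on the relative scale. Of 16 tested genes, 8 were called higher, 1 lower and 7 were not called. Sdcbp, described with the exosome genes below, is among those called higher and is counted in both lists. Over all tested genes 20.8% were called higher and 20.8% lower on this scale, with a median of 0.01. The syndecan gene Sdc4 had 15.6 ± 2.87 TPM in cKO hearts, against 4.64 ± 0.838 TPM in control hearts (SD, n = 5 each, log2 difference 0.89, limma adjusted p = 4.2e-05), and the hyaluronan receptor gene Cd44 17.5 ± 6.98 TPM in cKO hearts, against 4.02 ± 0.618 TPM in control hearts (1.16, limma adjusted p = 0.000373). The laminin-binding integrin gene Itga3 (0.52), the integrin-associated gene Cd47 (0.54) and Emp2 (0.53) were also called higher, with limma adjusted p = 0.000401, 0.000596 and 0.000699. The integrin genes Itgb1, with 327 ± 18.3 TPM in cKO hearts, against 192 ± 29.2 TPM in control hearts, and Itga7, the alpha chain that pairs with it in muscle, stood at 0.04 and -0.21 and were not called. The gene called lower was the laminin-binding integrin gene Itga6, at -0.34 (limma adjusted p = 0.00639). In the same hearts, on the relative scale, macrophage markers were called higher in 14 of 14 and fibroblast markers in 9 of 12, with 3 lower. Endothelial markers were called lower in 13 of 14 and cardiomyocyte markers in 11 of 12. The part of these cells in the partner levels was not tested.

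Genes of exosome formation and release were matched in 24 of 25 cases and tested in 22. Relative to the median gene 9 were called higher, 2 lower and 11 not called, with a median of 0.11. The shares over all tested genes were 20.8% higher and 20.8% lower, with a median of 0.01. Hgs, the ubiquitin-binding adaptor that starts sorting on endosomes, had a log2 difference of 1.00 (limma adjusted p = 6.7e-05). Sdcbp, encoding syntenin, which ties syndecans and CD63 to the ESCRT adaptor ALIX, had 108 ± 11.4 TPM in cKO hearts, against 48.7 ± 8.31 TPM in control hearts (0.42, limma adjusted p = 0.00152), and Pdcd6ip, encoding ALIX, 50.3 ± 7.35 TPM in cKO hearts, against 21.2 ± 2.44 TPM in control hearts (0.49, limma adjusted p = 0.00147, SD, n = 5 each). The flotillin gene Flot1 was called higher (0.38, limma adjusted p = 0.000681) and the sphingomyelinase gene Smpd2 lower (-0.34, limma adjusted p = 0.00124). Smpd3, the other sphingomyelinase gene of the list, was too low to test. It had 0.246 to 0.675 TPM in cKO and 0.237 to 0.392 TPM in control hearts, with overlap. Rab7 (0.02) and Rab11a (-0.17), small GTPases of late and recycling endosomes, were not called. The other gene called lower was Vps4a, at -0.20 ± 0.0595 (SE, limma adjusted p = 0.0179), which encodes an ATPase that takes ESCRT-III apart. Within the 7 libraries with Ddx3y, 4 genes of the list were called higher and 1 lower. With Ddx3y as a covariate 5 were called higher and 1 lower. Smpd2 kept its call in both settings, and Vps4a was not called in either. The Chmp4b, macrophage, endothelial, fibroblast and cardiomyocyte values above come from the same hearts.

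The next list holds 18 genes of the membrane of late endosomes and lysosomes, the compartment in which CD63 resides. Relative to the median gene 7 were called higher, 1 lower and 10 were not called, with a median of 0.18. Beside these counts stand 20.8% called higher and 20.8% lower over all tested genes, with a median of 0.01. The list is not confined to proteins that span the membrane. It includes Lamtor1 and the small GTPase gene Rab7, which is also counted in the exosome list. Lamp1, an abundant lysosomal coat protein gene, had 333 ± 45.4 TPM in cKO hearts, against 113 ± 14.7 TPM in control hearts (SD, n = 5 each, log2 difference 0.81, limma adjusted p = 1.8e-05), and Lamp2 was at 0.51 (limma adjusted p = 0.00073). Tmem192 (0.53, limma adjusted p = 0.00117), Ostm1, the partner of the chloride exchanger CLC-7 (0.40, limma adjusted p = 0.00265), and Lamtor1, the lysosomal anchor of the Ragulator complex (0.43, limma adjusted p = 0.00335), were called higher. Laptm4a, with 262 ± 20.2 TPM in cKO hearts, against 153 ± 27.0 TPM in control hearts, stood at 0.05 and was not called. The gene called lower was Cd164, at -0.22. Within the 7 libraries with Ddx3y, 4 genes were called higher and 1 lower, and Ostm1 was not called, at 0.30 (limma adjusted p = 0.0627). In the same hearts, relative to the median gene, 14 of 14 macrophage markers were called higher and 11 of 12 cardiomyocyte markers lower. Fibroblast markers were called higher in 9 of 12 and endothelial markers lower in 13 of 14 on this scale. As deposited, 3 of 12 cardiomyocyte markers were called lower and 2 higher.

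**Figure D5:**
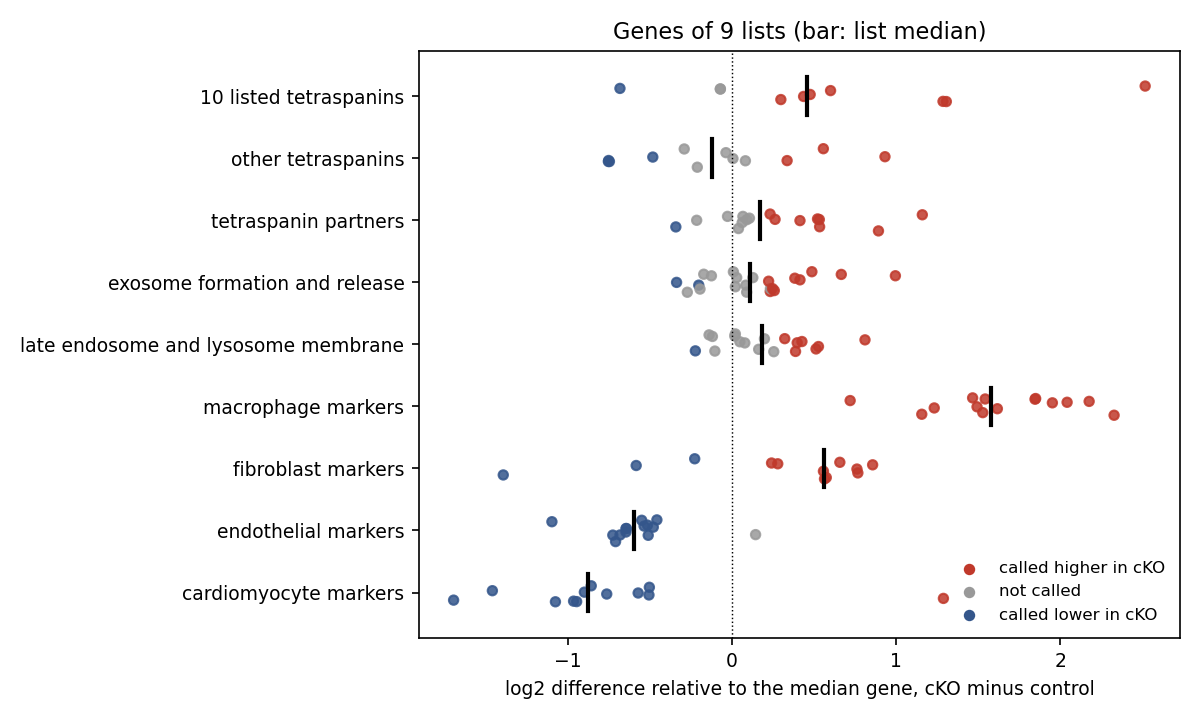
Log2 difference relative to the median gene, cKO minus control, of each tested gene in 9 lists, with a bar at the list median, coloured by limma call. List medians are 0.46 for the 10 listed tetraspanins, -0.12 for the other tetraspanins, 0.17 for partners, 0.11 for exosome genes, 0.18 for lysosomal membrane genes, 1.58 for macrophage, 0.56 for fibroblast, -0.60 for endothelial and -0.88 for cardiomyocyte markers.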

How the data were processed

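Whole-heart RNA of 5 cKO and 5 control mice was sequenced. Titles gave each sample's group and replicate number. The file deposited by the authors holds TPM, in which length-scaled counts sum to 1000000 per library, so depth is unknown and no counting interval is given. Per the submitters' processing notes, without role or order, the tools were STAR 2.7.1, HTSeq 0.11.2, Trimmomatic 0.32, DESeq2 1.22.2, FastQC 0.11.7, bcl2fastq and Picard 1.96, and the build was mm10. Annotation release, gene lengths and strand setting are not given in the sources used here.

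Gene positions come from GENCODE M21 (GRCm38), by unversioned gene ID. Genes with at least 1 TPM in at least 5 libraries (13282) were tested as log2(TPM + 1) with limma 3.58.1 in R 4.3.3 (mean-variance trend, two-sided, Benjamini-Hochberg over all tested genes, called at an adjusted p under 0.05), as deposited and after division by a median-of-ratios size factor from 16393 genes. This pseudocount understates fold changes of low genes. Chmp4b was compared by exact permutation over 252 splits. The script was tested on simulated data. Python 3.11.15, pandas 2.3.3, numpy 2.4.6 and scipy 1.17.1 handled the tables.

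Members and lists (4 gene lists, 10 marker lists) were chosen with earlier results of these data known. Named were every member, Chmp4b, every tested other tetraspanin, and in each further list up to 5 called genes of smallest p and 2 uncalled genes of highest level. Any other gene named (Adam10, Cdk4, Chid1, Itga6, Vps4a, Smpd3, Cd164, the untested tetraspanins and pseudogenes) was chosen after its values were seen. The promoter motifs were chosen in the same way. Alternatives were the pseudocount, filters, scalings, variance model, Ddx3y as a covariate, weights per library, each library left out in turn, and, added after seeing the data, the 7 libraries with Ddx3y.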

Additional observations from a re-analysis of the deposited data

Results flagged for a closer look

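In each group of 5 hearts, the highest and lowest library were compared with the nearest of the others, over 106 sets of 5 values. A library was set apart in 6 of them, and chance alone marks about 1 set in 20.

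Cd82 in cKO replicate 1 was at 20.0 TPM, against 10.2 to 12.8 TPM in the other cKO hearts, and at 14.5 relative TPM, against 8.56 to 9.75. Tspan4 in control replicate 13 was at 9.04 TPM, against 14.5 to 16.4 TPM in the other control hearts. Cd81 in cKO replicate 7 was at 320 relative TPM, against 251 to 269 in the other cKO hearts. Among the other tetraspanins, Tspan12 in cKO replicate 1 was at 16.9 TPM, against 19.9 to 20.9 TPM, and Tspan14 in cKO replicate 3 was at 8.84 TPM, against 11.2 to 11.7 TPM in the other cKO hearts.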

How the results depend on the processing

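Of 964 recomputed differences of single genes, 952 kept their direction and call, or were uncalled in both, 8 lost and 4 gained a call, and 0 called ones changed sign. No paired analysis was possible because the groups share 1 replicate number only. Genes of exosome formation called relative to the median gene numbered 5 higher and 1 lower with a Ddx3y covariate, and 4 higher and 1 lower in the libraries with Ddx3y, where 1 other tetraspanin and 4 lysosomal membrane genes were called higher. The cause was not tested. Leaving out 1 library at a time, genes called relative to the median gene numbered 7 to 9 higher and 2 to 3 lower for exosome formation, 6 to 7 higher and 1 lower for lysosomal membrane, 3 higher and 4 to 5 lower for other tetraspanins, and 7 to 8 higher and 1 to 2 lower for partners, with 2 lower (Itga7 added) without cKO replicate 1 or control replicate 6. Called as deposited, Chmp4b had a difference of -0.29 (exact permutation p = 0.0476). It ranged from -0.38 to -0.21 with 1 library left out, and the call was lost on leaving out each of the 5 cKO libraries in turn, or control replicate 6, 8 or 9 (exact permutation p from 0.0556 to 0.0952). Relative to the median gene it ranged from -1.07 to -0.96. The Cd63 ratio to the other 9 members differed by 0.183 to 0.203 with 1 library left out. Read depth is unknown, so the precision of low genes such as Tspan17 and Cd82 in control hearts rests on the spread of 5 libraries.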

Other observations

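Among tetraspanins too low to test, Tspan32 averaged 0.882 ± 0.476 TPM in cKO and 0.243 ± 0.123 TPM in control hearts, Tspan8 0.712 ± 0.345 TPM in cKO and 0.430 ± 0.214 TPM in control hearts, and Tspan11 0.362 ± 0.102 TPM in cKO and 0.515 ± 0.107 TPM in control hearts (SD, n = 5 each). As deposited, all cKO hearts were above all control hearts for Tspan32 and the groups overlapped for Tspan8 and Tspan11. Relative to the median gene, all cKO hearts were below all control hearts for Tspan11 and the groups overlapped for Tspan32 and Tspan8. The uroplakin gene Upk1a averaged 0.533 ± 0.198 TPM in cKO and 0.339 ± 0.106 TPM in control hearts, with overlap. These genes were named after their values were seen.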
